A study of Solanum lycopersicum with 14 samples.

Results

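E4 (Solyc03g111720.2, chromosome 3) and E8 (Solyc09g089580.2, chromosome 9) are tomato genes named for the ethylene-inducible fruit transcripts from which they were first known. They were taken by these 2 locus identifiers from the 26397 genes with read counts in the deposited table, and their profiles and their share of the library reads were followed from 7 to 49 days after flowering (DAF). E4 resembles methionine sulfoxide reductases, enzymes that reduce oxidised methionine, and its closest Arabidopsis gene in the deposited table is AT5G61640 (PMSR1). E8 belongs to the 2-oxoglutarate-dependent dioxygenases, the enzyme superfamily that also holds the ACC oxidases of ethylene synthesis, and its closest Arabidopsis gene is AT1G06620.

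Tomato is a climacteric fruit, in which ripening comes with a burst of the gas hormone ethylene. ACC synthases (ACS) and ACC oxidases (ACO) make the hormone, receptors of the ETR family and the kinase CTR1 hold the response back until ethylene binds, and EIN2 and the EIN3-like (EIL) factors carry the response to the nucleus. E4 and E8 have long served as readouts of that response, and the E8 promoter is widely used to drive transgenes in ripening fruit. The MADS-box factor RIN and the NAC factor NOR are needed for the ripening programme in which both genes are switched on.

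Fruit of the English cultivar Ailsa Craig (AC) and of the Chinese inbred line HG6-61 was collected every week from 7 to 49 DAF, with no treatment, from 5 greenhouse plants of each genotype. There was 1 RNA-seq library for each cultivar and stage, 14 in all, and the study used the cultivars as each other's replicate. The p-values of the edgeR fit, which has stage and cultivar terms, rest on how far the cultivars disagreed over the stages beyond a constant difference. Permutation p-values come from reordering the libraries and do not measure that spread. The collection protocol places mature green at 35 DAF, breaker (the first change of colour) at 42 DAF and ripening at 49 DAF, while the stage field of the labels gives mature green for every harvest of 7 to 35 DAF. The labels call the tissue fruit, and the methods name the pericarp, the fruit wall, of the pooled fruit of each stage.

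The libraries held between 1461817 (HG6-61, 35 DAF) and 6274456 (HG6-61, 21 DAF) gene-assigned reads, and 17346 to 22493 genes had at least 1 read. Transcripts of seed genes were found in the fruit RNA: 16 genes for seed storage and oil body proteins took 3.07% and 2.95% of the AC reads and 0.735% and 2.28% of the HG6-61 reads at 21 and 28 DAF, 0.503% and 0.741% at 35 DAF, and at most 0.107% at 42 and 49 DAF. All 16 were detected in AC at 21 and 28 DAF, and 9 to 15 of them in every other library. The summed share of 32 light-harvesting genes went from 0.2% to 0.376% at 7 and 14 DAF down to 0.00341% to 0.0103% at 42 and 49 DAF. Ripening transcripts set the 35 DAF libraries apart, though both are named mature green. In RPKM (reads scaled to gene length and library size), the polygalacturonase PG2a, the phytoene synthase PSY1 and RIN stood at 982, 3079.5 and 447 in AC. In HG6-61 at 35 DAF they stood at 2.2, 42.2 and 6.5. The stage name thus covers unlike transcript levels at 35 DAF. The part of tissue make-up in the profiles of E4 and E8 was not tested, and in bulk tissue fewer cells with a transcript and less transcript per cell cannot be told apart.

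E4 was low in growing fruit of both cultivars, rose to a similar RPKM in each, and did so a harvest later in HG6-61. In RPKM, the read count scaled to gene length and to library size, AC had 39.3, 20.4, 22.0 and 61.3 at 7, 14, 21 and 28 DAF, then 1921 at 35 DAF, followed by 609.6 and 187 at 42 and 49 DAF. HG6-61 had 27.5, 23.2, 20.4, 9.55 and 19.8 RPKM from 7 to 35 DAF, then 1851 at 42 DAF and 355 at 49 DAF. The AC and HG6-61 series thus each held a single high harvest with lower values on both sides of it, as the plot of RPKM by harvest day shows.

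**Figure D1:**
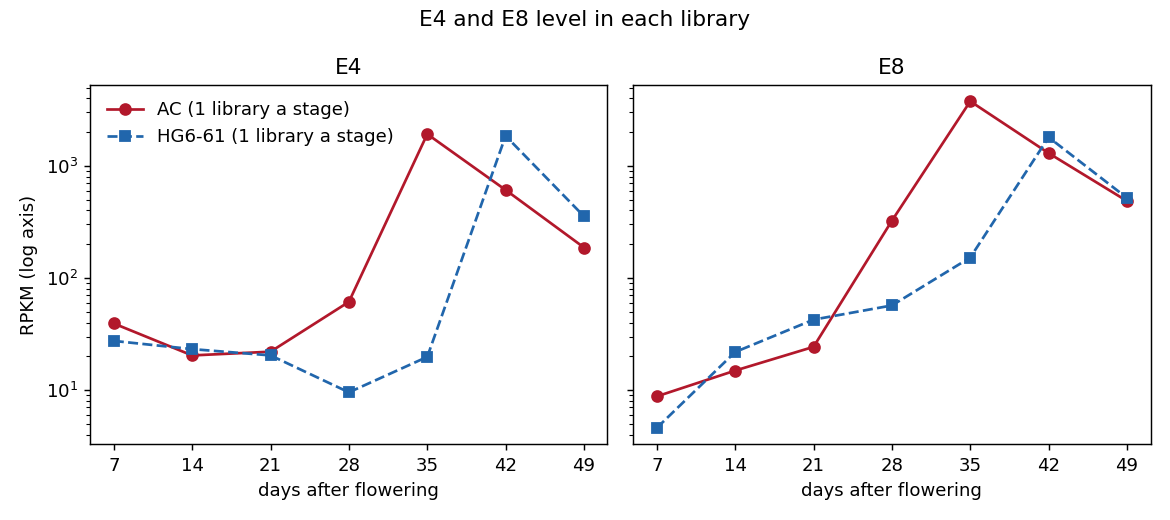
RPKM on a log axis against days after flowering for E4 (left) and E8 (right), with 1 point for each library, AC in red circles and HG6-61 in blue squares. Both genes were highest in AC at 35 DAF and in HG6-61 at 42 DAF, and E8 climbed over several harvests before its peak while most of the rise of E4 came in the step to it.

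In AC the E4 peak was 48.9 times the 7 DAF level, and in HG6-61 it was 67.4 times that level. On the log scale, the last step to the peak carried most of the rise: the share of reads rose 31.8-fold (95% interval 28.2 to 36.2) from 28 to 35 DAF in AC and 90.6-fold (63.7 to 134) from 35 to 42 DAF in HG6-61. These intervals, like all others on ratios of single libraries, are exact conditional binomial intervals and cover counting error only. Before the rise, E4 went down: its share at 14 DAF was 0.51 of that at 7 DAF in AC (0.351 to 0.737), and its share at 28 DAF was 0.348 of that at 7 DAF in HG6-61 (0.234 to 0.507). After the peak the share dropped 3.14-fold and then 3.24-fold over the next harvests of AC, and 5.27-fold between 42 and 49 DAF in HG6-61.

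Ordered by level within AC, E4 ran 35, 42, 49, 28, 7, 21 and 14 DAF, and of the stages next to each other in that order only 21 and 14 DAF could not be separated by counting error (ratio 1.1, 0.724 to 1.67). In HG6-61 the top of the order was 42 and 49 DAF, and the steps from 7 to 14 DAF (0.855, 0.649 to 1.13) and from 14 to 21 DAF (0.872, 0.669 to 1.14) had intervals that include 1. The HG6-61 shares at 21 DAF (0.00207%, 0.00173 to 0.00246%) and 35 DAF (0.00212%, 0.00144 to 0.00301%) also overlapped. The low HG6-61 values rest on few reads, 38 at 28 DAF and 31 at 35 DAF, against 4075 at 42 DAF.

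E8 began lower than E4 and, unlike E4, climbed at each harvest up to its peak in both cultivars. AC had 8.79, 14.9, 24.3 and 324 RPKM at 7, 14, 21 and 28 DAF, then 3769.7 at 35 DAF, followed by 1299 and 486 at 42 and 49 DAF. HG6-61 had 4.60, 21.9, 42.5, 56.9 and 152 RPKM from 7 to 35 DAF, 1799 at 42 DAF and 517 at 49 DAF. None of the step intervals of E8 includes 1 in either cultivar, from the smallest rise, 1.33-fold (1.16 to 1.52) between 21 and 28 DAF in HG6-61, to the largest, 13.3-fold (10.8 to 16.5) between 21 and 28 DAF in AC.

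The E8 peak was 429 times the 7 DAF level in AC and 391 times that level in HG6-61. On the log scale, most of the climb came ahead of the last step to the peak. In AC, E8 had risen 36.8-fold (25.7 to 54.6) in share by 28 DAF and had a further 11.8-fold (11.3 to 12.3) to go, and in HG6-61 it had risen 36-fold (25.4 to 52.6) by 35 DAF and had a further 11.1-fold (10.1 to 12.3) to go. In the harvest just before the peak E8 thus stood at 8.6% of its peak RPKM in AC and at 8.46% in HG6-61, whereas E4 stood at 3.19% and 1.07%. The decline of E8 to 49 DAF left it at 55.3 times its 7 DAF level in AC and 112 times in HG6-61, and the corresponding folds of E4 were 4.76 and 12.9.

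At their peaks the genes took a visible part of all gene-assigned reads. E8 held 0.703% of the AC library of 35 DAF (95% Clopper-Pearson interval 0.695 to 0.711%; 30060 reads) and 0.338% of the HG6-61 library of 42 DAF (0.331 to 0.346%; 7178 reads). By number of reads it ranked 9 of 20199 detected genes in the first and 17 of 18573 in the second. E4 held 0.198% (0.193 to 0.202%; 8454 reads, rank 35) and 0.192% (0.186 to 0.198%; 4075 reads, rank 25) of the same libraries.

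Together E4 and E8 made up 0.9% of the AC reads at 35 DAF and 0.531% of the HG6-61 reads at 42 DAF. At 7 DAF the sum was 0.00561% and 0.00362%, and at 49 DAF it was 0.111% and 0.133%. Of all the RPKM summed over the AC series, 67.2% for E4 and 63.6% for E8 fell at 35 DAF, and of the HG6-61 sum 80.3% and 69.3% fell at 42 DAF. The bars of read share by harvest show this concentration in a single library of each cultivar. Read shares are not corrected for length, and E8 is listed with 2262 bases against 1057 for E4. In RPKM, E4 (1851) and E8 (1799) had nearly equal levels at the HG6-61 peak, while at the AC peak E8 had 1.96 times the RPKM of E4. With the gene-assigned reads as library size, these RPKM imply lengths of 1846 bases for E8 and 1021 for E4 (medians over libraries). The values ran from 1834.5 to 1995.5 and from 999.3 to 1071.6 over libraries, so the RPKM used another library size. The study's larger counts of uniquely mapped reads would give shorter lengths, again not the listed ones. Both comparisons thus depend on the length that the RPKM used.

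**Figure D2:**
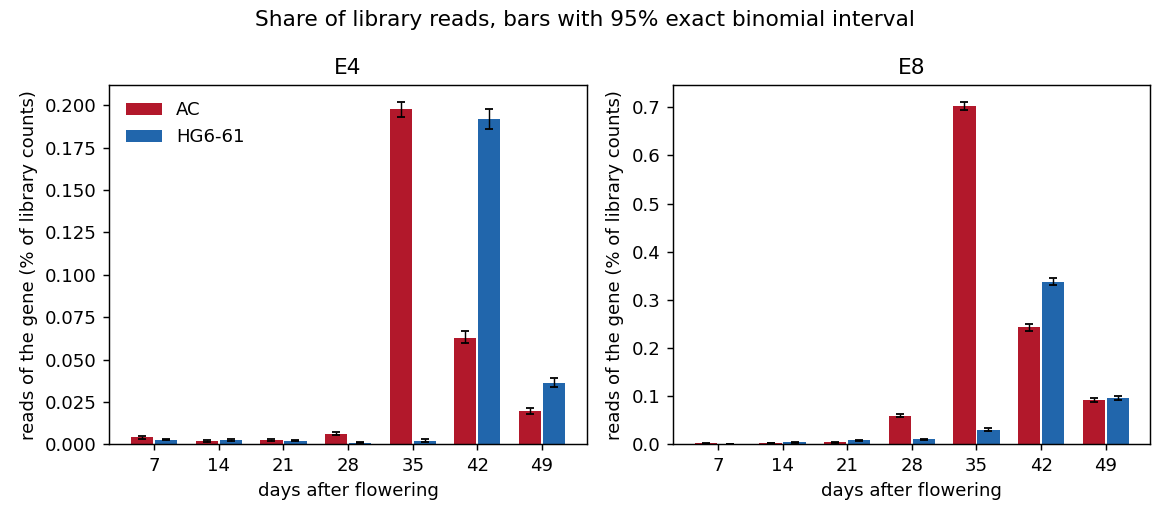
Reads of E4 (left) and E8 (right) as a percentage of all gene-assigned reads of each library, against days after flowering, in AC (red) and HG6-61 (blue); error bars are 95% exact binomial intervals. The tallest bars are AC at 35 DAF (E4 0.198%, E8 0.703%) and HG6-61 at 42 DAF (E4 0.192%, E8 0.338%).

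The balance between both transcripts shifted in the same order in both cultivars. At 7 DAF there were 0.405 E8 reads per E4 read in AC (0.256 to 0.627) and 0.304 in HG6-61 (0.2 to 0.449). The ratio climbed to 1.35, 2 and 9.59 at 14, 21 and 28 DAF in AC and to 1.7, 3.78, 10.8 and 14.3 at 14, 21, 28 and 35 DAF in HG6-61. It was therefore highest in the harvest just before the peak in each cultivar, at 9.59 (8.44 to 10.9) and 14.3 (9.95 to 21.3).

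At the peak the ratio dropped to 3.56 (3.47 to 3.64) in AC and to 1.76 (1.69 to 1.83) in HG6-61, as E4 rose by more than E8 in that step. Afterwards it went up again, to 3.86 and 4.71 in AC and to 2.65 in HG6-61. The intervals of the peak libraries lie below those of the harvest before in both cultivars, and those of the 49 DAF libraries lie above those of the peak.

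**Figure D3:**
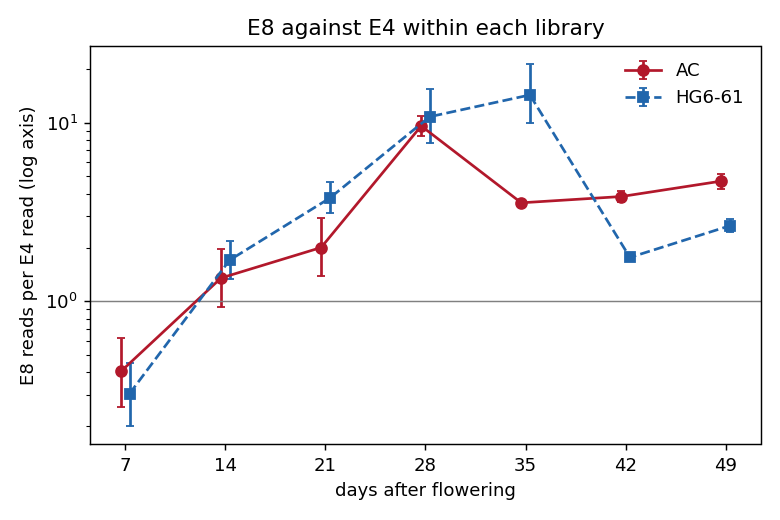
E8 reads divided by E4 reads in each library, on a log axis against days after flowering, for AC (red circles) and HG6-61 (blue squares), with 95% exact binomial intervals; the grey line marks equal reads. The ratio was below 1 at 7 DAF in both cultivars, highest in AC at 28 DAF (9.59) and in HG6-61 at 35 DAF (14.3), and lower again at the peak harvests.

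The comparison of cultivars on the same day turned on the date of the peak. At 28 DAF the E4 share was 6.41-fold lower (4.55 to 9.27) and the E8 share 5.7-fold lower (5.14 to 6.35) in HG6-61 than in AC. At 35 DAF, with AC at its peak, E4 was 93.2-fold lower (65.6 to 137) and E8 23.1-fold lower (21.1 to 25.5) in HG6-61. At 42 DAF the order was reversed, with HG6-61 higher by 3.05-fold for E4 (2.86 to 3.26) and 1.39-fold for E8 (1.34 to 1.44).

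At 49 DAF E4 was still 1.87-fold higher in HG6-61 (1.67 to 2.1), whereas for E8 the interval of the ratio includes 1 (1.05, 0.991 to 1.12). When each cultivar was taken at its own peak, the HG6-61 to AC ratio of the E4 shares was 0.972 (0.936 to 1.01), and E8 was 2.08-fold lower in HG6-61 (2.02 to 2.13). The near equality of E4 rests on library totals: the ratio was 0.845 with TMM factors, which scale each library to the bulk of its genes, and 0.931 without the 10 genes with the most reads. With TMM factors the E8 ratio was 0.419 at the peak and 0.961 at 49 DAF. With 1 library a cultivar and harvest, none of these differences has a replicate check.

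Averaged over the 7 stages in the edgeR fit, the cultivars could not be separated for either gene. The HG6-61 against AC log2 fold change was -0.63 for E4 (SE 0.81, edgeR adjusted p = 0.759) and -0.75 for E8 (SE 0.63, adjusted p = 0.611), with approximate 95% intervals of -2.21 to 0.95 and -1.99 to 0.48. In this comparison 0.238% of the 18082 genes tested were called, that is, passed an adjusted p of 0.01 with a log2 fold change beyond 2 in either direction, and neither E4 nor E8 was among them.

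Next, the ripening harvests, 42 and 49 DAF, were compared with the growing fruit of 7 to 28 DAF. Both 35 DAF libraries were left out of the ranges and the permutation test, among them the AC library with the highest level of each gene. The early set holds AC at 28 DAF, where E8 was already at 324 RPKM and RIN at 43.5. The 42 and 49 DAF libraries had 187 to 1851 RPKM of E4 (median 482) and the 7 to 28 DAF libraries 9.55 to 61.3 (median 22.6). For E8 the ranges were 486 to 1799 (median 908) and 4.60 to 324 (median 23.1). Neither gene overlapped between the 4 late and the 8 early libraries. Of all genes tested, 4.62% lay higher in every late than in every early library, and 18.2% lay lower. The late mean was higher by 4.35 for E4 and 4.95 for E8 on the log2(RPKM + 1) scale. The exact two-sided permutation test of stage labels within cultivars gave p = 0.00444 for each, the smallest value its 225 arrangements allow. Harvests of a cultivar are an ordered series and not replicates, so this p adds little to the lack of overlap.

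In the edgeR quasi-likelihood fit over all 14 libraries, the same contrast gave a log2 fold change of 4.83 for E4 (SE 0.81, edgeR adjusted p = 0.000544) and of 5.23 for E8 (SE 0.65, adjusted p = 7.64e-05). Both genes were called higher; of all genes tested, 5.71% were called higher and 14.1% lower. The median change of all genes was -0.18, and with library totals in place of TMM factors it was -0.42. The rise of both genes was thus several log2 units clear of either scaling.

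Harvest by harvest against 7 DAF, E8 passed and E4 did not. E8 had log2 fold changes of 1.63 at 14 DAF, 2.54 at 21 DAF (edgeR adjusted p = 0.163) and 4.72 at 28 DAF (edgeR adjusted p = 0.0149), none of them called. It was called in each later harvest: the change was 8.33 for 35 DAF (SE 1.42, edgeR adjusted p = 0.00132), 8.29 for 42 DAF (SE 1.41, adjusted p = 0.000886) and 6.61 for 49 DAF (SE 1.31, adjusted p = 0.00216). Of all genes, 0.293%, 2.7% and 5.08% were called higher in the 3 harvests up to 28 DAF, and 6.89%, 7.88% and 8.83% in the 3 after it.

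E4 had fitted log2 fold changes of -0.55, -0.61 and -0.03 at 14, 21 and 28 DAF. Its later changes were 4.99 for 35 DAF (SE 1.53, edgeR adjusted p = 0.0252), 5.65 for 42 DAF (SE 1.55, adjusted p = 0.0124) and 3.41 for 49 DAF (SE 1.40, adjusted p = 0.0676), all short of the threshold. Without both 35 DAF libraries, in which the cultivars stand 93.2-fold apart, the SE of E4 was 0.86 at 42 DAF and 0.78 at 49 DAF, and its edgeR adjusted p was 0.000467 and 0.00474. Without the AC library of 35 DAF alone, the 35 DAF change of E4 was -0.27. The biological coefficient of variation, the spread between libraries beyond counting error that edgeR estimates, was 80.7% for E4 and 66.8% for E8 against a median of 30.1%, and 1.63% and 4.33% of genes had a higher one. All E8 calls against 7 DAF were lost without either 7 DAF library (edgeR adjusted p up to 0.0253), while the log2 changes stayed between 6.53 and 8.42.

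Whether the genes moved together was asked across libraries, on log2(RPKM + 1). Within AC, Pearson's r was 0.923 (n = 7, exact permutation p = 0.00298, adjusted over 6 such tests 0.00893) and Spearman's rho 0.893 (exact p = 0.0123, adjusted 0.0185). Within HG6-61, r was 0.8 (n = 7, exact permutation p = 0.0308, adjusted 0.0369), but rho was 0.321 (exact p = 0.498, adjusted 0.498). Leaving out the 2 libraries farthest from the median of E8 gave r = 0.954 in AC (without 7 and 14 DAF) and 0.776 in HG6-61 (without 42 and 7 DAF). The AC peak at 35 DAF thus stayed in. On RPKM without a log, the libraries left out were 35 and 42 DAF in AC (r = 0.899) and 42 and 49 DAF in HG6-61 (r = -0.346).

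Libraries of a developmental series share their trend, and the relation did not hold within the growing fruit alone. Over the 8 libraries of 7 to 28 DAF, a set added after seeing the data, r was 0.208 (exact permutation p = 0.618) and rho was -0.167 (exact permutation p = 0.703), and r was -0.86 without the 2 farthest libraries, AC at 28 DAF and HG6-61 at 7 DAF. Over these harvests E8 climbed in each cultivar, while E4 went down in HG6-61 and, in AC, was lower at 14 and 21 DAF than at 7 DAF and higher at 28 DAF.

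The date of the peak was shared with few genes of the genome but with most of the list of other ripening genes. The lists were chosen with earlier results of these data known, so the counts below are not independent support. Of 17716 genes compared, 422 (2.38%) had the peak dates of E4 and E8, 35 DAF for AC and 42 DAF for HG6-61. Of 7 other ripening genes 6 had these dates, namely the polygalacturonase PG2a, the pectate lyase PL, the expansin EXP1, the β-galactosidase TBG4, the lipoxygenase LOXC and the endoglucanase CEL2; the phytoene synthase PSY1, which opens carotenoid synthesis, was highest in AC at 35 DAF and in HG6-61 at 49 DAF. Of 9 ethylene synthesis genes 2 did (ACS2 and ACS4), of 7 ripening regulators 2 did (NOR and AP2a), and of 7 receptors and 8 signalling genes 0 did.

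Among the ethylene synthesis genes, 4 of 9 tested were called higher at 42 and 49 DAF than at 7 to 28 DAF and 0 lower. The shares over all genes tested were 5.71% and 14.1%. The median log2 change of the list was 0.45, against -0.18 for all genes. ACS2, an ACC synthase of ripening fruit, rose by 9.28 (SE 0.80) and went in AC from at most 2.68 RPKM up to 28 DAF to 681 at 35 DAF, and in HG6-61 from at most 0.57 up to 28 DAF to 10.99 at 35 DAF and 281 at 42 DAF. ACS4, another ACC synthase, rose by 5.82 (SE 1.21). The oxidases ACO5 and ACO1 rose by 4.16 and 3.30 and were highest at 49 DAF in both cultivars.

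ACO1 was well expressed ahead of E4: it stood at 851 RPKM in AC at 28 DAF, when E4 was at 61.3, and at 248 RPKM in HG6-61 at 14 DAF, when E4 was at 23.2. ACS1A, ACS3 and ACS8 had too few reads to be tested. With library totals in place of TMM factors, ACO4 was the 1 gene of the list called lower. With TMM factors its change was -1.96 (edgeR adjusted p = 0.000138), short of the fold-change threshold only.

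Of 7 receptors, 4 were called higher and 0 lower (median 2.03), against 5.71% and 14.1% of all genes. NR rose by 2.75 (SE 0.48), ETR6 by 2.54 (SE 0.43), ETR7 by 2.13 (SE 0.24) and ETR4 by 2.03 (SE 0.36). With library totals, 2 of the 4 receptor calls were left. ETR2 (1.36, edgeR adjusted p = 0.00106) and ETR5 (1.03, adjusted p = 0.00263) missed the fold-change threshold only. Of 8 signalling genes tested, 2 were called higher (median 1.16; 1 with library totals): EBF1 rose by 2.70 and EBF2 by 2.10, both F-box proteins that mark EIN3-like factors for breakdown. CTR1, EIN2 and EIL1 to EIL4 were not called, with log2 values from -0.62 (EIN2) to 1.58 (EIL3). Of these, EIL3 (edgeR adjusted p = 3.13e-05), CTR1 (0.00171) and EIL4 (0.00351) missed the fold-change threshold only. EIN2, EIL1 and EIL2 also missed that of the adjusted p.

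Of 7 ripening regulators 4 were called higher and 0 lower (median 2.75), against 5.71% and 14.1% of all genes. RIN rose by 9.41 (SE 1.01), NOR by 5.31 (SE 0.55), the MADS-box gene FUL1 by 3.80 (SE 0.35) and the ripening repressor AP2a by 2.75 (SE 0.42). CNR (1.82, edgeR adjusted p = 0.000237) and FUL2 (-1.01, adjusted p = 0.00193) missed the fold-change threshold only. RIN was at 43.5 RPKM in AC at 28 DAF and at 6.50 in HG6-61 at 35 DAF, the harvests in which E8 was at 324 and 152. Of the 7 other ripening genes 4 were called higher (median 4.85): PG2a rose by 10.03, PSY1 by 5.38, PL by 4.87 and EXP1 by 4.85. LOXC (2.77, edgeR adjusted p = 0.0375) and CEL2 (2.59, adjusted p = 0.0251) missed the threshold of the adjusted p. In AC both were lower at 49 than at 7 DAF (LOXC 2.82 against 4.84 RPKM, CEL2 3.24 against 35.1). E8 (5.23) and E4 (4.83) lay within the range of this list, 1.97 (TBG4, not called) to 10.03, as the plot of fitted changes by gene shows. The edgeR adjusted p of every gene called in these lists was between 9.84e-06 and 0.00425.

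**Figure D4:**
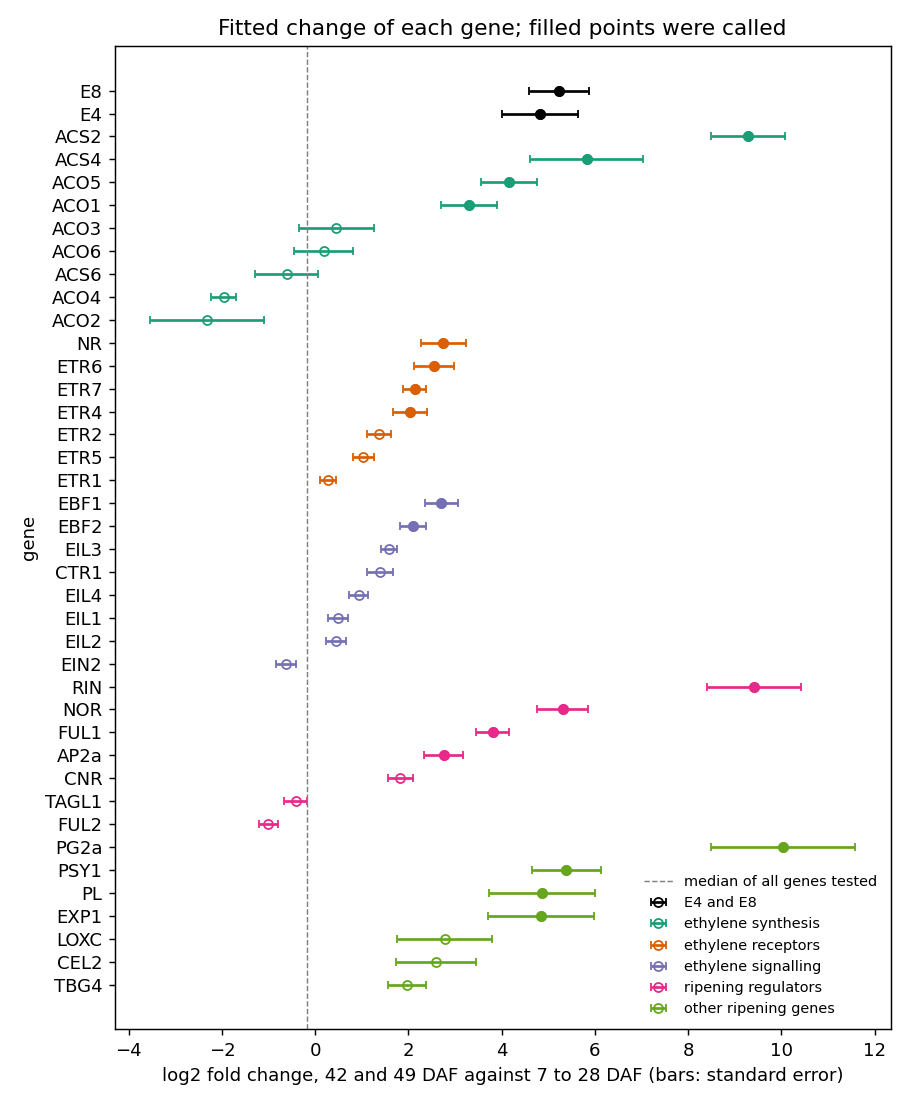
Fitted log2 fold change of 42 and 49 DAF against 7 to 28 DAF (x axis; bars are standard errors) for E4, E8 and the tested genes of 5 lists, 1 gene a row, coloured by list; filled points were called and the dashed line is the median of all genes (-0.18). E4 (4.83) and E8 (5.23) sit near EXP1, PL and PSY1, below ACS2, RIN and PG2a, and above all ethylene receptors and signalling genes.

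The genes whose profiles were most like each member's were picked by Pearson's r on log2(RPKM + 1) over 14 libraries, among 17714 genes. For E4 the first 5 were Solyc01g099040.2 (closest Arabidopsis gene AT5G03980, r = 0.987), Solyc02g068310.2 (AT1G14130, r = 0.974), Solyc10g080900.1 (AT3G55290, r = 0.966), Solyc02g088270.2 (AT5G39530, r = 0.962) and Solyc01g080410.2 (AT4G04830, MSRB5, r = 0.958). The last carries the Arabidopsis name of a methionine sulfoxide reductase of the B type. It had 566 RPKM at the AC peak and 436 at the HG6-61 peak, and 2.33 to 9.32 RPKM at 7 to 28 DAF.

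For E8 the first 5 were Solyc12g010320.1 (TIL, a lipocalin, r = 0.987), Solyc02g032930.2 (AT5G42570, r = 0.972), Solyc06g061170.2 (BOU, a mitochondrial carrier, r = 0.972), Solyc03g111970.2 (CYP71A25, a cytochrome P450, r = 0.97) and Solyc09g092500.1 (AT4G14090, r = 0.97). All 10 genes had the peak dates of E4 and E8, which largely follows from picking them by likeness over the same libraries. TIL was the most abundant, at 6292 RPKM in AC and 3245 in HG6-61 at the peaks, with 147 to 1238 RPKM at 7 to 28 DAF. The members were not each other's nearest profile: with r = 0.859 between them, 124 genes were closer to E4 than E8 was and 348 were closer to E8 than E4 was. The order depends on the measure: by Spearman's rho 1 of the 5 genes stayed among the first 5 for each member, 3 of the 5 of E4 and all 5 of E8 stayed among the first 100, and MSRB5 ranked 442 for E4.

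E4 had no other gene with the same closest Arabidopsis gene, whereas E8 shared AT1G06620 with 19 others, 13 of them on chromosome 9. Reads that mapped to several places were removed upstream, so counts of close copies may be too low. Of these 19 genes, 8 had fewer than 10 reads in every library and 11 were tested. Of the 11, 4 were called higher at 42 and 49 DAF than at 7 to 28 DAF and 2 lower (3 and 2 with DESeq2). The shares over all genes tested were 5.71% higher and 14.1% lower.

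The name E8 is not unique in tomato annotations: RefSeq (assembly SLM_r2.1) gives it as a symbol to a gene on chromosome 3 and as a synonym to another on chromosome 9, and neither could be paired by identifier with the loci of these files. E8 here means Solyc09g089580.2. The family gene Solyc03g095900.2 on chromosome 3 also rose late: it had 0.15 to 4.20 RPKM at 7 to 28 DAF apart from 242 at 28 DAF in AC, 1164 in AC at 35 DAF and 970.2 in HG6-61 at 42 DAF, and rose by 7.05 (SE 1.24, edgeR adjusted p = 0.000718). The other 3 called higher, Solyc09g089730.2, Solyc09g089740.2 and Solyc09g089820.1, never exceeded 18.0 RPKM. E8 itself made up 17.8%, 16.9% and 17.1% of the reads of the 20 genes in AC at 7, 14 and 21 DAF and 75.8% at 35 DAF. Its part in HG6-61 went from 6.19% at 7 DAF to 60.7% at 42 DAF.

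The loci around the genes were compared in the same contrast. Of the 10 loci nearest to E4 in locus order 9 were tested. Of these, 1 was called higher and 3 lower (4 with library totals), against 5.71% and 14.1% of all genes. The 1 called higher was the pectate lyase PL, Solyc03g111690.2, 3 loci from E4, at 1275 RPKM in AC at 35 DAF and 788 in HG6-61 at 42 DAF. The loci between PL and E4, Solyc03g111700.2 and Solyc03g111710.2, had log2 values of -1.32 and -1.25, and the next locus on the other side, Solyc03g111730.2, fell by 3.34 on the log2 scale. By adjusted p alone (edgeR, under 0.01), 1 of the 9 was higher and 6 were lower, against 16.2% and 21.3% of all genes. The median log2 change of the 9 was -1.32, against -0.18 for all genes.

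Of the 10 loci nearest to E8 6 were tested, 1 was called higher and 0 lower, against 5.71% and 14.1% of all genes. For 1 of the 6, Solyc09g089530.2, the fit gave no standard error, so it could not be called. It fell from 59.5 RPKM in AC and 85.7 in HG6-61 at 7 DAF to at most 0.81 later. Solyc09g089540.2, not tested, had 5.0 and 15.9 RPKM at 7 DAF and 0 later. The counts of 0 lower thus leave out these falls. The 1 called was the ethylene receptor ETR6, Solyc09g089610.2, 2 loci from E8, which was at 41.5 RPKM in AC at 35 DAF and 41.2 in HG6-61 at 49 DAF. By edgeR's adjusted p alone, however, 4 of the 6 were higher and 0 lower, against 16.2% and 21.3% of all genes: beside ETR6 (2.54) these were Solyc09g089550.2 (1.20), Solyc09g089560.2 (1.17) and Solyc09g089640.2 (1.35). The median of the 6 was 1.19, against -0.18 for all genes. The bars of change by locus show the members and these neighbours beside the rest. Whether reads were counted by strand is not given in the sources used here, so reads from overlapping genes on opposite strands could not be told apart.

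**Figure D5:**
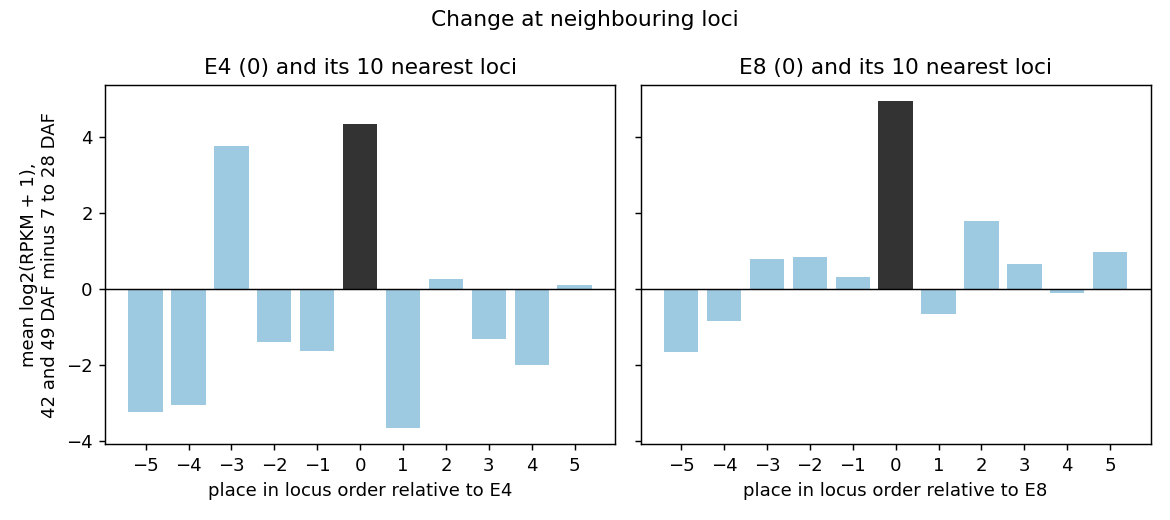
Mean log2(RPKM + 1) of the 42 and 49 DAF libraries minus that of the 7 to 28 DAF libraries, for E4 (left) and E8 (right) in dark bars at 0 and for the 5 loci on each side in light bars, by place in locus order. E4 (4.35) has a single neighbour that was called higher, PL at -3, and the largest change around E8 (4.95) is that of ETR6 at 2.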

How the data were processed

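Fruit RNA of 14 libraries (2 cultivars, 7 stages, 1 library each) had been sequenced on an Illumina Genome Analyzer IIx. Per the methods, the authors aligned reads with TopHat 2.0.4 to the SL2.40 genome with at most 2 mismatches and removed reads with several alignments. The deposited table gives counts of reads per gene and RPKM computed by the authors. The counter, its strand setting and the exact RPKM denominators are not given in the sources used here. With gene-assigned reads as library size, RPKM implied 1021 bases for E4 and 1846 for E8 (medians over libraries). The listed lengths are 1057 and 2262. The implied lengths varied by library, and the larger counts of uniquely mapped reads would make them shorter.

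Counts were fitted with edgeR 4.0.16 (R 4.3.3) by quasi-likelihood with stage and cultivar terms, TMM factors and filterByExpr, and p-values were adjusted over 18082 genes by the Benjamini-Hochberg method. Calls needed both an adjusted p below 0.01 and a change of more than 2 log2 units. RPKM entered correlations and the exact permutation tests as log2(RPKM + 1). DESeq2 1.42.0 and limma 3.58.1 served as alternatives. The 5 genes most like each member were those of highest Pearson's r among genes with at least 10 reads in 2 libraries and 5 RPKM in 1. The members, gene lists and tests were chosen with earlier results of these data known. No sequences are printed, since none could be paired with these locus identifiers.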

Additional observations from a re-analysis of the deposited data

Results flagged for a closer look

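For E4 the cultivars moved in opposite directions from the same starting stage at 2 harvests. The log2 ratio of RPKM at 28 against 7 DAF was 0.642 in AC and -1.524 in HG6-61, and at 35 against 7 DAF it was 5.612 in AC and -0.473 in HG6-61. With 1 library a cultivar and stage the difference between cultivars was not tested. The HG6-61 value at 35 DAF rests on 31 reads, and the interval of its ratio of shares to 7 DAF, 0.495 to 1.14, includes 1. E8 had no harvest at which the cultivars moved in opposite directions from 7 DAF.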

How the results depend on the processing

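Higher E4 and E8 at 42 and 49 DAF than at 7 to 28 DAF kept direction and call with library totals, without the low-count filter, with DESeq2, with limma, without the cultivar term, without the 35 DAF libraries and without each library in turn (E4 log2 change 4.04 to 5.41, E8 4.83 to 5.60); where a stage then had 1 library, it is assumed to vary like the others. Neither gene was called between cultivars under any of these settings that keep a cultivar term. Calls against 7 DAF were less firm. E8 at 28 DAF (4.72) was called without the filter (4.84), with DESeq2 (4.67), without 35 DAF (4.96) and with the 4 libraries of both stages only (4.56), which also called E8 at 21 DAF (2.50). E4 was called at 35 DAF without the filter (5.21) and with DESeq2 (4.96), at 42 DAF under the same settings (5.78 and 5.63), and without 35 DAF and with 4 libraries at 42 DAF (5.62 and 5.36) and 49 DAF (3.40 and 3.27). E4 at 28 DAF (-0.03) turned positive without the filter (0.0865), without the cultivar term (0.16) and without 35 DAF (0.24). With 1 library left out, log2 changes ran for E4 from -1.64 to 0.86 at 28 DAF, -0.27 to 6.27 at 35 DAF, 3.97 to 6.69 at 42 DAF and 2.46 to 4.20 at 49 DAF, and for E8 from 3.36 to 5.54, 5.17 to 9.50, 7.50 to 9.01 and 6.25 to 7.11. E4 at 28 DAF turned positive without AC 35 DAF or without HG6-61 7, 28 or 35 DAF; E8 at 28 DAF and E4 at 42 and 49 DAF were called without either 35 DAF library, and E4 at 35 DAF without that of HG6-61. The cause was not tested.

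Genes called at 14 DAF numbered 122, but 257 without the filter, 404 with DESeq2, 302 with limma, 57 without the cultivar term, 189 without 35 DAF, 812 with 4 libraries and 11 to 211 with 1 left out. At 21 DAF 784 became 1356 (DESeq2), 509 (no cultivar term), 2007 (4 libraries) and 113 to 1039. At 28 DAF 1779 became 2912 (4 libraries) and 481 to 2124. Leaving 1 library out gave 1036 to 2982 at 35 DAF (2752 with all), 2055 to 4032 at 42 DAF (3801) and 2137 to 4305 at 49 DAF (4095), lowest without a 7 DAF library. Between cultivars 43 became 85 (no filter), 119 (DESeq2) and 19 to 48. Shares of reads at the peak rose when the 10 genes with the most reads were left out of the total (E4 0.228% in AC and 0.212% in HG6-61, E8 0.804% and 0.374%) or totals were scaled by TMM factors (E4 0.24% and 0.203%, E8 0.853% and 0.357%). In AC at 35 DAF, E8 was itself 1 of these 10 genes, and its reads were kept in the total for its own share. The correlation over all 14 libraries (r = 0.859) was 0.208 in those of 7 to 28 DAF. The rescaled cultivar ratios and the neighbour counts by adjusted p alone were also added after seeing the data.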
